A study of Mus musculus with 6 samples.

Results

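Elastic fibre and lysyl oxidase genes were followed in libraries described by their submitters as mouse mesenchymal stromal cells of the endosteum, the lining of the bone marrow cavity. The set is a list of named genes, drawn up with earlier results of these data known, and holds 10 genes of the 55471 gene identifiers in the expression table: elastin (Eln), the fibrillins Fbn1 and Fbn2, the microfibril protein Mfap5, the fibulins Fbln1, Fbln2 and Fbln5, and the crosslinking enzymes Lox, Loxl1 and Loxl2. All 10 were found, and 8 reached the mean of 1 RPKM (reads of a gene divided by its length and by the library's mapped reads) that the test required. Eln and Mfap5 did not.

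Elastic fibres consist of a core of crosslinked elastin laid on a scaffold of microfibrils, whose backbone is fibrillin. Fibulins bridge tropoelastin, microfibrils and the cell surface, and some of them bring lysyl oxidases to the site of assembly. Lysyl oxidases are secreted copper enzymes that oxidise lysines so that elastin and collagen chains can be joined, and in bone they are known mainly for crosslinking collagen.

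Polyadenylated RNA was sequenced in 3 libraries labelled Bap1 WT, from C57BL/6J mice carrying the floxed allele without Cre (Bap1fl/fl), and in 3 labelled Bap1 cKO, from C57BL/6J mice that carry the same floxed allele with Prx1-cre (Prx1-cre;Bap1fl/fl). Prx1-cre drives recombination in limb mesenchyme and its descendants, and Bap1 encodes a deubiquitinase of histone H2A. The study's title asks how Bap1 in these stromal cells shapes the marrow niche for lymphocyte formation. Whether different mice gave the libraries of each group is not stated in the labels, so the p-values reflect library-to-library spread alone, which may be technical.

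Depth, estimated from the steps between low values, was 13000000 to 22100000 fragments per library, with cKO rep3 the deepest. Bap1 lay between 22.72 and 24.01 RPKM in WT and between 22.99 and 28.27 in cKO, so the whole-gene value gave no sign of the deletion and does not check the labels; the groups are therefore named by their labels. The 11 mesenchymal stromal markers summed to 2196.84 to 2334.8 RPKM in WT and to 124.84 to 230.43 in cKO. Of these, Eng, Thy1 and Vcam1 were under 1 RPKM in all cKO libraries, Col1a1 was at 462.77 to 541.83 RPKM in WT and 14.64 to 71.44 in cKO, and Cxcl12 at 488.27 to 521.07 and 12.41 to 64.22. Col1a2, the highest of these markers in WT, was at 946.43 to 994.81 RPKM in WT and 7.92 to 21.22 in cKO. Prrx1 overlapped between the groups, at 68.16 to 83.75 and 39.46 to 72.24. Twist1 was at 16.11 to 17.74 RPKM in WT and 14.86 to 15.87 in cKO, and Pdgfra at 6.86 to 8.31 and 9.72 to 19.56. Osteoblast markers (6) summed to 390.5 to 455.15 RPKM in WT and 18.51 to 42.61 in cKO, and chondrocyte markers (5) to 76.24 to 83.89 and 123.09 to 236.2. The higher chondrocyte sum came mostly from Col11a1, at 2.17 to 2.78 RPKM in WT and 67.9 to 212.59 in cKO. Sox9 was also higher, at 1 to 1.2 and 4.31 to 11.47. Col2a1 was at 72.26 to 80.72 RPKM in WT and at 19.23, 43.69 and 93.74 in cKO rep1 to rep3. Acan and Matn1 were at most 0.21 and 0.02 in all 6 libraries. All 5 endothelial markers were under 1 RPKM in all 6 libraries, and the 6 blood cell markers summed to 1.74 to 3.06 RPKM in WT and 5.23 to 9.65 in cKO, mostly Cd68 (1.69 to 2.66 and 4.33 to 7.54), with Ptprc at most 0.03. The part of these lists in the results was not tested. A kidney epithelium list summed to 6.86 to 8.96 RPKM in WT and 125.79 to 246.67 in cKO, where nearly all of it was Pax8, while its marker Umod was at 0 in all 6 libraries and the epithelial marker Epcam at most 0.29. Contractile genes (7 in the list, with Myh11 and Des under 1 RPKM throughout) summed to 2169.3 to 2438.37 RPKM in WT and to 121.48, 226.5 and 2649.69 in cKO rep1, rep2 and rep3, which sets cKO rep3 apart from the other cKO libraries. In a bulk sample fewer cells of a type and less RNA per cell cannot be told apart. Whether the libraries labelled cKO hold the same cell population as those labelled WT was not tested.

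Of the 8 tested members, Fbn1, Fbn2 and Fbln5 rose, Fbln1 and Loxl1 fell, and Lox, Loxl2 and Fbln2 did not pass (limma's moderated test, Benjamini-Hochberg adjusted p under 0.05 over all 12223 genes tested). The test called 61.2% of all genes, 34.7% higher and 26.5% lower, so 3 of 8 members higher and 2 lower is near the background, and the count is no result about these genes. The libraries of the groups did not overlap in 4 members that were above WT and 2 that were below it, where 39.2% and 29.8% of all genes tested did so. The median log2 difference was 0.02 over the 8 members and 0.09 over all genes tested. The members spread widely around that median, from −4.16 for Loxl1 to 3.56 for Fbln5 on the log2(RPKM + 1) scale.

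**Figure D1:**
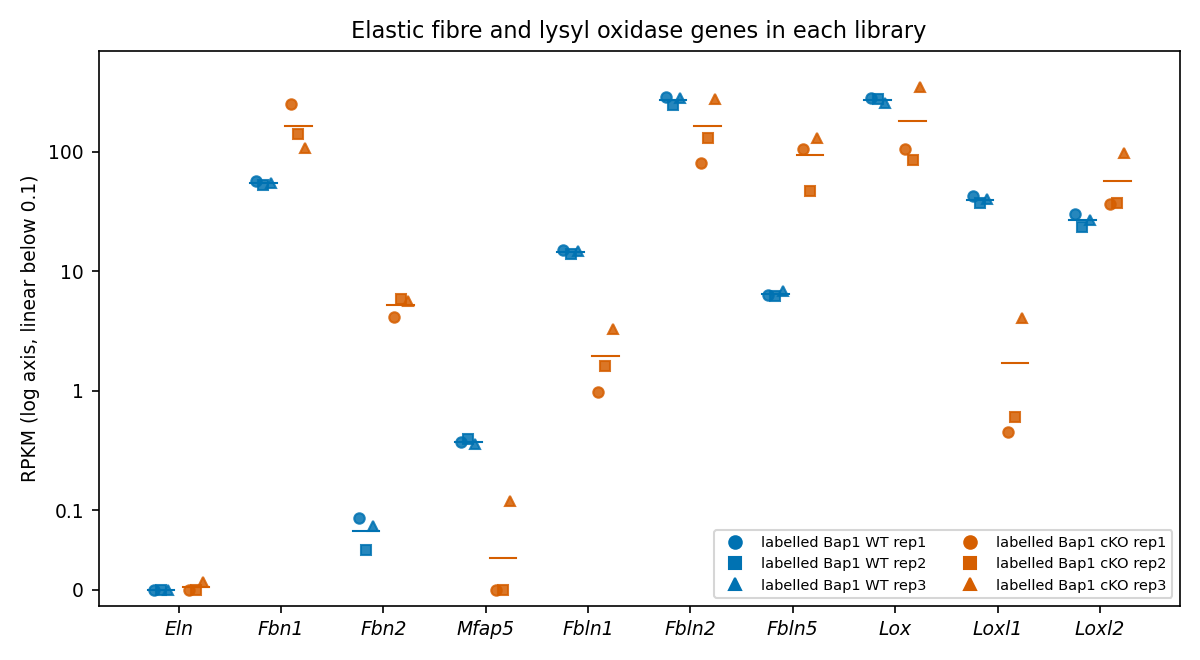
RPKM of the 10 genes in each library, on an axis that is logarithmic above 0.1 and linear below. Blue symbols are libraries labelled WT, orange symbols libraries labelled cKO, the symbol shape gives the replicate number and bars are group means. The WT libraries lie close together in the 8 tested genes, the cKO libraries spread more in all of these but Fbn2, and Eln lies at or next to 0 throughout.

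Elastin itself was hardly detected. In WT the 3 values of Eln were all 0, and in cKO they were 0, 0 and 0.01 RPKM for rep1 to rep3. The last value corresponds to about 0.817 of a fragment on its longest transcript, and 3 fragments, taken as the floor of detection and covering counting error only, would be 0.0367 to 0.0623 RPKM. No difference was therefore detectable at this depth in the gene (chromosome 5, 134702593 to 134747323, GRCm38), and the changes that follow concern cells with elastin messenger RNA below that floor in both groups.

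The fibrillins, large glycoproteins that polymerise into the microfibril, were both higher in the libraries labelled cKO. Fbn1 (chromosome 2, 125300594 to 125507993, minus strand) was at 56.62, 52.36 and 54.65 RPKM in WT and at 250.37, 140.04 and 106.75 in cKO rep1 to rep3. Its cKO values lie above all WT values, with cKO rep1 the highest. Leaving out cKO rep1 gives a ratio of the group means of 2.26, against 3.04 with all libraries. The group means of 54.5 ± 2.13 and 166 ± 75.2 RPKM (SD; each mean in the text is over n = 3 libraries) are 3.04-fold apart. On the log2 scale the difference was 1.49, with an SE of 0.29 (limma adjusted p = 0.00422); errors of other log2 differences are also SE.

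Fbn2 encodes the fibrillin that predominates in embryonic microfibrils, and it rose from close to nothing. It was at 0.09, 0.05 and 0.08 RPKM in WT and at 4.12, 5.87 and 5.68 in the cKO libraries. The groups do not overlap, and all 3 cKO libraries are raised to a like level. The gene is long, so that the WT values still stand for about 14.3, 7.13 and 12.9 fragments against 584 to 1365 in cKO, and the ratio of the means is 71.2 (log2 difference 2.52 ± 0.16 with the pseudocount of 1, limma adjusted p = 4.61e-05). The summed fibrillin level rose from 54.6 ± 2.15 to 171 ± 74.3 RPKM, and the share of Fbn2 in it moved from 0.133 ± 0.0335% to 3.56 ± 1.76%. Shares in cKO rep1 to rep3 were 1.62%, 4.02% and 5.05%, all above the WT shares of 0.0954 to 0.159% (exact permutation test, 2-sided, p = 0.1, the smallest that 3 against 3 allow; 0.12 adjusted over 6 shares tested). Fbn1 thus remained the main fibrillin messenger in all 6 libraries.

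The third microfibril gene, Mfap5, which encodes a small glycoprotein (MAGP-2) bound to fibrillin, was too low to test. It was at 0.37, 0.39 and 0.36 RPKM in WT and at 0, 0 and 0.12 in the cKO libraries. On its longest transcript the WT values are about 12 to 12.6 fragments each and the value of cKO rep3 about 6.2. The cKO values lie below the WT values, 2 of them under the floor of 3 fragments, so no fold is given. The gene passed with the minimum lowered to 0.1 RPKM or removed.

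RefSeq promoter sequences matched 4 of the 10 members by symbol, Fbn1, Fbln1, Fbln2 and Fbln5, and all 4 are shown. The 300 bases of Fbn1 (GRCm38.p6) run from 250 before to 50 after an annotated start, written 5′ to 3′ on the gene's strand, at chr2:125506389-125506688 (minus strand). This RefSeq start lies inside the gene as GENCODE annotates it. Capitals mark matches, on either strand, to 5 motifs that do not contain each other. They are the TATA box searched as TATAAA, the Sp1 motif as GGGCGG, the Smad motif as CAGAC, the TEAD motif as GGAATG, and, for AP-1, TGANTCA.

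Fbn1: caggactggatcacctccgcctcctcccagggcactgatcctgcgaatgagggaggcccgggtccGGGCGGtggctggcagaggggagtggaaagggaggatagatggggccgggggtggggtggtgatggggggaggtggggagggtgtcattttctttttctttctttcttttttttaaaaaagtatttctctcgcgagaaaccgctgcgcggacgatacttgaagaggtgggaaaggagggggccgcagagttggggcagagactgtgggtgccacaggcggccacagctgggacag

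Fibulins went in different directions. Fbln5 binds elastin and integrins and is required for elastic fibre assembly in skin, lung and vessels. It was at 6.36, 6.19 and 6.78 RPKM in WT and at 105.27, 47.32 and 130.45 in cKO rep1 to rep3. The lowest cKO library stands far above the highest WT library. The rise from 6.44 ± 0.304 to 94.3 ± 42.6 RPKM is 14.6-fold, with a log2 difference of 3.56 ± 0.35 and a limma adjusted p of 0.000237. The gene lies on chromosome 12 (101746565 to 101819055, minus strand), where the median log2 difference of 433 tested genes was 0.58. Without that chromosome median the call of Fbln5 was kept, and the chromosome medians of the other tested members lay between −0.25 and 0.34.

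Fbln1, a fibulin of basement membranes and elastic fibres, fell. It was at 15.04, 13.99 and 14.67 RPKM in WT and at 0.97, 1.6 and 3.27 in cKO. The groups do not overlap, and cKO rep3 is the highest of the cKO libraries. The fall is 7.48-fold, 11.3-fold without cKO rep3 (log2 difference −2.48 ± 0.27, limma adjusted p = 0.000375). The gene lies on chromosome 15, 85205949 to 85286535, plus strand.

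Fbln2, which binds fibrillin and elastin and is abundant where mesenchyme remodels, separated the cKO libraries. It was at 288.05, 245.52 and 281.58 RPKM in WT and at 80.84, 131.41 and 275.69 in cKO rep1 to rep3. The first 2 cKO libraries lie below all WT libraries, whereas cKO rep3 lies within the WT range. The log2 difference of −0.92 ± 0.41 has a 95% interval of −1.89 to 0.06 and did not pass (limma adjusted p = 0.0913), while without cKO rep3 it was −1.39 with an adjusted p of 0.00139. The contractile genes that set cKO rep3 apart move with this result, and their part in it was not tested.

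The 3 fibulin promoters are shown with the same marks, from RefSeq at GRCm38.p6: Fbln5 at chr12:101819070-101819369 (minus strand), Fbln1 at chr15:85205699-85205998 (plus strand) and Fbln2 at chr6:91212514-91212813 (plus strand). The Fbln2 start lies 309 bases past the GENCODE start, so its whole window lies inside the gene as GENCODE annotates it.

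Fbln5: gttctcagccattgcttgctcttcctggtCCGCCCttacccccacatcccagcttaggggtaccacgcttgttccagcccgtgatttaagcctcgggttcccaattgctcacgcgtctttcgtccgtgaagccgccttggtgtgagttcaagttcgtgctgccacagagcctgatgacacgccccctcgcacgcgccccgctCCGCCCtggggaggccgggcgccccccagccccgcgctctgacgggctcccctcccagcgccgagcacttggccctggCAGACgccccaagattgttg
Fbln1: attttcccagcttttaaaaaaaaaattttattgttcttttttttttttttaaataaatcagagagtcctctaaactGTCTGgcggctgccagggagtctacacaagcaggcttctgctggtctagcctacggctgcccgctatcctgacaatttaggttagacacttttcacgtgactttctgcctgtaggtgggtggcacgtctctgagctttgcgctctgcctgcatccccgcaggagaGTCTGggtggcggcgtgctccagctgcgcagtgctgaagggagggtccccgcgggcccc
Fbln2: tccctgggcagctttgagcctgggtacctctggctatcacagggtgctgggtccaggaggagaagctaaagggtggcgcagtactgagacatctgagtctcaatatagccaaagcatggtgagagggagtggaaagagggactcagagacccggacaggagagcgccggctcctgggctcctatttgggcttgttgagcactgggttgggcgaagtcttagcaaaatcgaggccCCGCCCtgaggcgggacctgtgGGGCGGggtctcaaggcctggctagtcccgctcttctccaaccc

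The Sp1 motif was found in Fbn1 (1 match), Fbln2 (2) and Fbln5 (2), and in 35.7% of the 32851 RefSeq promoters of this length. The Smad motif was found in Fbln1 (2 matches) and Fbln5 (1), and in 49.6% of all promoters. The TATA box, AP-1 and TEAD motifs, held by 13.6%, 7.81% and 14.7% of promoters, were in none of the 4 windows, which says only that these letters are not there. CpG dinucleotides numbered 14 in Fbn1, 12 in Fbln1, 10 in Fbln2 and 24 in Fbln5, against a median of 7 over all promoters. These matches describe the letters and are neither binding sites nor causes.

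Lysyl oxidase itself was the most abundant enzyme messenger of its family and did not pass the test. Lox (chromosome 18, 52516067 to 52529867, minus strand) was at 279.17, 277.18 and 256.19 RPKM in WT and at 104.73, 85.12 and 350.96 in cKO rep1 to rep3. Its cKO rep1 and rep2 lie below all WT libraries and cKO rep3 above all of them. The log2 difference was −0.88 ± 0.50 with a 95% interval of −2.08 to 0.31 (limma adjusted p = 0.168). Without cKO rep3, Lox was 2.85-fold lower (log2 difference −1.51, limma adjusted p = 5.45e-05). The contractile sum is likewise far higher in cKO rep3 than in the other cKO libraries, and its part in the Lox values was not tested.

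An antisense gene that overlaps Lox, AC161119.1, was at 13.65 to 16.89 RPKM in WT and at 1.1, 1.23 and 8.35 in cKO. Like Lox it is lowest in cKO rep1 and rep2. In cKO rep3 it lies below all WT libraries, where Lox lies above them. The kit marks strand, but the strand setting of the counting is not given in the sources used here, so reads of such a pair may not be fully told apart.

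Loxl1, the family member tied to elastin crosslinking and to fibulin-5, fell the most of the 10 genes. It was at 42.3, 36.87 and 39.87 RPKM in WT and at 0.45, 0.6 and 4.07 in cKO. The groups are far apart, and cKO rep3 again stands above the other cKO libraries. The fall was 23.3-fold, 75.6-fold without cKO rep3 (log2 difference −4.16 ± 0.46, limma adjusted p = 0.000395). Loxl1 (chromosome 9, 58287738 to 58313186, minus strand) thus fell in the libraries in which its partner Fbln5 rose.

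Loxl2, which crosslinks collagen IV of basement membranes and also acts in the nucleus, was at 30.1, 23.28 and 26.7 RPKM in WT and at 36.39, 37.34 and 97.56 in cKO rep1 to rep3. All cKO values lie above the WT values, but cKO rep3 lies far above the rest. The log2 difference of 0.92 ± 0.37 (95% interval 0.02 to 1.82) missed the threshold (limma adjusted p = 0.0709), and without cKO rep3 a smaller difference of 0.46 passed (0.0133). Groups without overlap in either direction were found for 69% of all genes tested. Loxl2 (chromosome 14, 69609068 to 69695834, plus strand) overlaps the antisense gene Gm27177, which was at 4.37 to 7.01 RPKM in WT and at 0.18 to 3.09 in cKO.

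Adding the relatives Loxl3 and Loxl4, which carry the same catalytic domain, gives the whole family on the same per-length scale. Loxl3, an enzyme of cartilage, palate and muscle development, was at 95.52, 84.51 and 99.69 RPKM in WT and at 0.23, 0.23 and 1.12 in cKO, a fall of 177-fold (405-fold without cKO rep3; log2 difference −5.99 ± 0.23, limma adjusted p = 5.64e-06). Loxl4 was at 46.13, 39.42 and 53.71 RPKM in WT and at 42.45, 49.43 and 69.22 in cKO, and did not pass (log2 difference 0.19, 95% interval −0.29 to 0.66). The family summed to 461.26 to 493.22 RPKM in WT and to 184.25, 172.72 and 522.93 in cKO rep1 to rep3, so cKO rep3 lay above the WT sums and the others below (means 477 ± 16 and 293 ± 199; exact permutation p = 0.4).

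In these libraries the family's make-up differed between the groups, though a test of 3 against 3 could not reach an adjusted p under 0.05. Loxl3 held 19.5 ± 1.32% of the sum in WT and 0.157 ± 0.0494% in cKO, and Loxl1 held 8.31 ± 0.296% and 0.457 ± 0.283%. Loxl2 held 5.59 ± 0.528% in WT and 20 ± 1.5% in cKO, with 19.8%, 21.6% and 18.7% in cKO rep1 to rep3. Loxl4 held 9.73 ± 1.4% and 21.6 ± 7.79%, although its level did not pass (log2 difference 0.19). The shares are parts of 1 sum, so a share can rise where other genes of the family fall. For these 4 shares the groups do not overlap, with an exact permutation p of 0.1 each (2-sided, the smallest possible; 0.12 adjusted over the 6 shares). The share of Lox was 56.8 ± 3.15% in WT and 57.7 ± 8.95% in cKO (exact permutation p = 0.9). The Loxl2 share of cKO rep3 is like that of cKO rep1 and rep2, although the Loxl2 level of cKO rep3 is far higher.

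**Figure D2:**
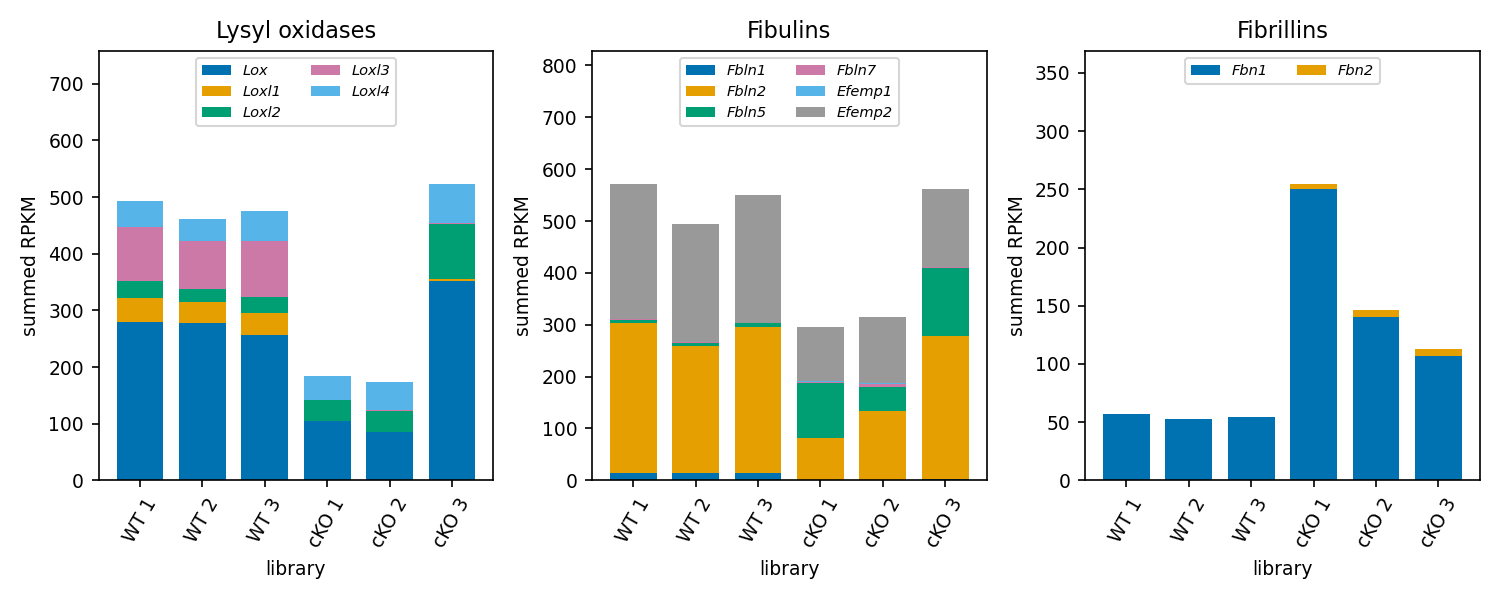
Summed RPKM of the lysyl oxidases, fibulins and fibrillins in each library, with a colour for each gene and bars that start at 0. Loxl1 and Loxl3 are nearly gone from the cKO libraries, Fbln5 grows from 1.11 to 1.25% of the fibulin sum in WT to 15.1 to 35.7% in cKO, and in cKO rep3 the lysyl oxidase sum is above and the fibulin sum within the WT range.

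The same view of the fibulins, with Fbln7 and the fibulins named Efemp1 and Efemp2 added, showed a sum of 539 ± 39.5 RPKM in WT and 390 ± 148 in cKO (exact permutation p = 0.3). Fbln2 and Efemp2 together made up most of it in WT, at 50.4 ± 0.788% and 45.5 ± 0.712%. The share of Fbln5 rose to 35.7%, 15.1% and 23.3% in cKO rep1 to rep3, values that do not overlap with WT and for which an exact permutation test of 3 against 3 gives its smallest p of 0.1.

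The order of levels changed with these differences. In WT, Fbln2 and Lox were highest and overlapped, followed without overlap by Fbn1, Loxl1, Loxl2, Fbln1, Fbln5, Mfap5, Fbn2 and Eln. In cKO the ranges of Lox, Fbn1, Fbln2 and Fbln5 overlapped, and Loxl2 overlapped with all of these except Fbn1. Fbn2 came next and lay above Fbln1 and Loxl1, whose ranges overlapped, and Mfap5 and Eln were last.

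Among the cKO libraries, cKO rep3 was the highest in 6 of the 8 tested members, Fbn1 and Fbn2 being the exceptions. It was the highest for 38.7% of all genes tested. The median log2 distance of cKO rep3 from the mean of cKO rep1 and rep2 was 1.15 over the 8 members and 0 over all genes tested. Set against the WT mean, cKO rep1 and rep2 each had 3 members at least 1 higher and 4 at least 1 lower on the log2 scale, and cKO rep3 had 3 higher and 2 lower. For all genes tested these shares were 15.3% and 14.7% in cKO rep1, 15.3% and 13.6% in cKO rep2, and 12.2% and 11% in cKO rep3.

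**Figure D3:**
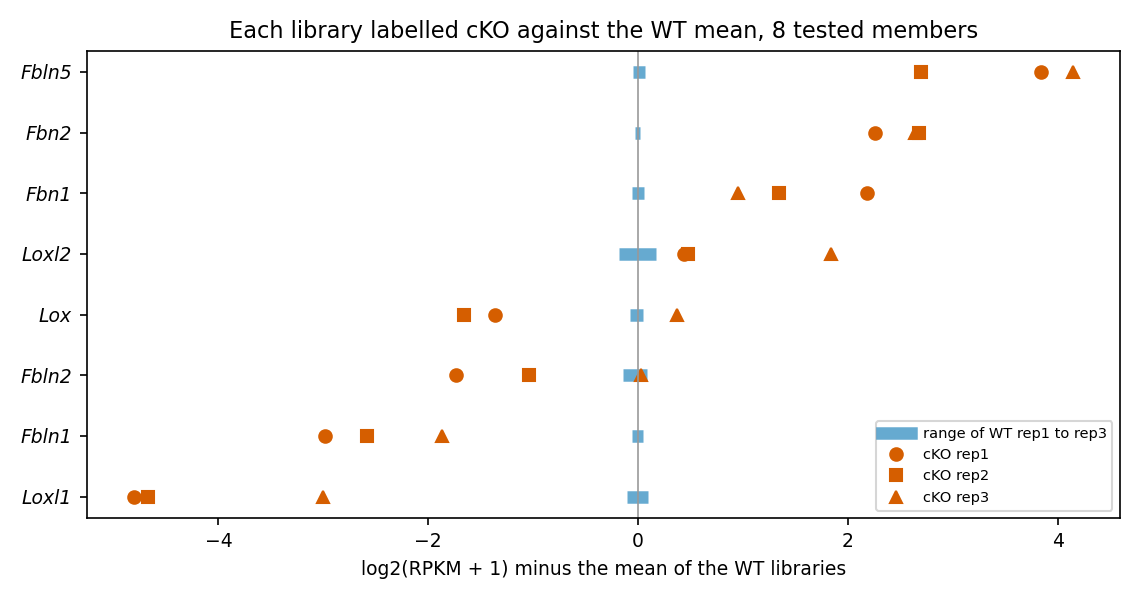
Difference of each cKO library (orange symbols) from the mean of the WT libraries in log2(RPKM + 1), for the 8 tested members, with the range of the WT libraries as a blue bar. In Lox and Fbln2 cKO rep3 parts from the other cKO libraries, at 0.37 and 0.02 against −1.73 to −1.04, while in Fbln5, Fbn2, Fbn1, Fbln1 and Loxl1 all 3 lie on the same side.

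Of 52 further genes of the pathway in 5 lists, 38 were tested, 9 rose, 19 fell and 10 did not pass, against 34.7% higher and 26.5% lower over all genes tested. Their median log2 difference was −0.40, against 0.09 over all genes. The lists differed in direction, with medians from −1.37 for elastin-degrading proteases and inhibitors to 0.88 for microfibril and elastin-binding genes.

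Of 8 tested microfibril and elastin-binding genes 5 rose and 2 fell, against 34.7% higher and 26.5% lower over all genes tested. Ltbp4, a latent TGF-beta binding protein needed for elastic fibre assembly with fibulin-5, rose 44.5-fold from 0.497 ± 0.271 to 22.1 ± 14.3 RPKM (limma adjusted p = 0.00134). Ltbp2, which competes for fibrillin and binds fibulin-5, rose from 4.49 ± 1.55 to 41.7 ± 25.7 RPKM, a 9.3-fold change that is 6-fold if cKO rep3 is left out. Ltbp4 and Ltbp2 lie on chromosomes 7 and 12, with median log2 differences of 0.64 and 0.58, and both kept their calls with chromosome centring. Ltbp3 rose 1.44-fold, whereas Ltbp1 did not pass (95% interval of the log2 difference −0.44 to 0.43). Efemp2, the fibulin-4 that links lysyl oxidase to tropoelastin, fell 1.93-fold from 245 ± 16.4 to 127 ± 22.8 RPKM (limma adjusted p = 0.00112).

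Emilin1, an elastin-associated glycoprotein named after its values were seen, was at 205.25, 181.04 and 191.72 RPKM in WT and at 6.57, 0.82 and 29.6 in cKO, a fall of 15.6-fold and of 52.1-fold without cKO rep3 (limma adjusted p = 0.00455). Fbln7, likewise named afterwards, was called higher but lost its call when any of 5 libraries was left out, all but cKO rep3 (limma adjusted p of 0.0575 to 0.11). The microfibril proteins Mfap2 and Mfap4 joined Eln and Mfap5 below the minimum for testing, at 0.6 RPKM or less in all 6 libraries.

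The list of lysyl oxidase relatives, activation and copper delivery had 5 of 8 tested genes lower and 1 higher. Over all genes tested, 26.5% were lower and 34.7% higher. Loxl3, itself a lysyl oxidase, is among the 5, and Loxl4 did not pass. Bmp1, the protease that removes the propeptide of Lox, was at 87.9, 88.1 and 90.31 RPKM in WT and at 34.55, 29.84 and 34.16 in cKO. The libraries of each group lie close together, cKO rep3 included, and the fall of 2.7-fold had a log2 difference of −1.41 ± 0.08 (limma adjusted p = 2.81e-05). Periostin (Postn), a scaffold that brings Bmp1 to its substrates, fell 26.7-fold. The copper importer Slc31a1 rose 2.62-fold from 11.9 ± 0.615 to 31.2 ± 4.21 RPKM. It lies on chromosome 4, where the median log2 difference was 0.44. With chromosome centring its log2 difference was 0.87 instead of 1.31, and its call was kept. The copper pump Atp7a, which loads lysyl oxidases, did not pass (95% interval of the log2 difference −0.38 to 0.28). Fibronectin (Fn1) and the copper chaperone Atox1, named after their values were seen, made up the rest of the fallen genes, and Fn1 lost its call when any of those same 5 libraries was left out (limma adjusted p of 0.0832 to 0.104).

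Of 6 tested ADAMTS and ADAMTS-like genes whose products bind fibrillin, 1 rose, 1 fell and 4 did not pass. Over all genes tested, 34.7% were called higher and 26.5% lower, and 6 genes are too few to set against these shares. Adamtsl3 rose 31.5-fold from 0.513 ± 0.0551 to 16.1 ± 6.01 RPKM, on chromosome 7 with its median log2 difference of 0.64. Adamts6 fell 8.49-fold (13.3-fold without cKO rep3).

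Of 8 tested genes in the list of elastin-degrading proteases and their inhibitors, 6 fell, 1 rose and 1 did not pass. Over all genes tested, 26.5% were called lower and 34.7% higher. The 4 tested proteases are among the fallen genes, and the inhibitors went both ways. Cathepsin K (Ctsk), a collagen- and elastin-degrading enzyme, was at 35.22, 32.65 and 35.58 RPKM in WT and at 2.53, 0.26 and 6.27 in cKO, an 11.4-fold fall (24.7-fold without cKO rep3). Mmp2, a gelatinase, fell 3.97-fold from 197 ± 7.33 to 49.5 ± 25.7 RPKM, and its activator Mmp14 fell 4.36-fold. The cathepsin inhibitor Cst3 fell 2.41-fold from 336 ± 22 to 139 ± 3.75 RPKM. The macrophage and neutrophil elastases Mmp12, Mmp9 and Elane were at 0.08 RPKM or less in all libraries and were not tested.

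Among elastin receptor and integrin genes 5 of 8 fell and 1 rose, against 26.5% lower and 34.7% higher over all genes tested. Neu1, the sialidase of the elastin receptor complex and of lysosomes, was at 7.22, 8.49 and 7.65 RPKM in WT and at 272.35, 234.44 and 161.34 in cKO, a rise of 28.6-fold (log2 difference 4.64 ± 0.19, limma adjusted p = 8.26e-06). Its partners in that complex moved the other way, with Ctsa 1.41-fold and Glb1 1.31-fold lower. The integrin chains Itga5 and Itgav fell 4.28-fold and 2.3-fold.

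**Figure D4:**
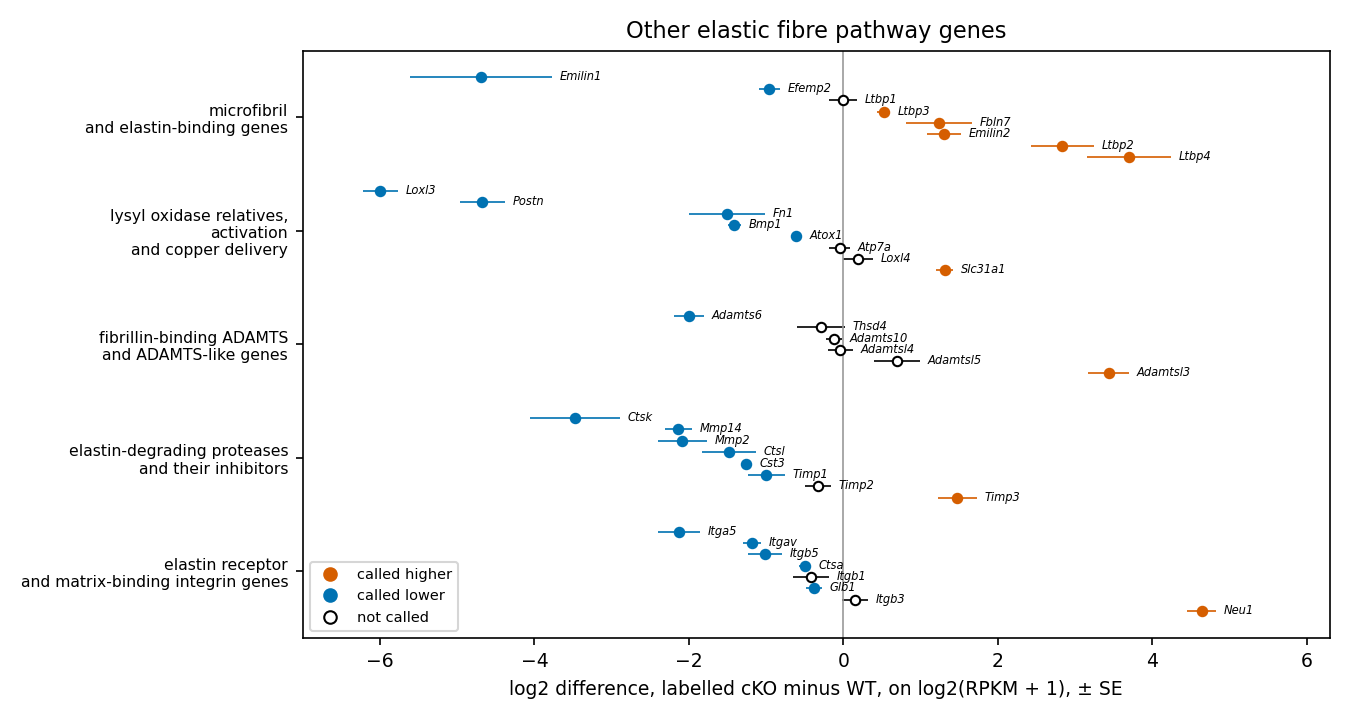
Log2 difference between the groups (labelled cKO minus WT) with its SE for the 38 tested genes of the 5 pathway lists, with filled orange symbols for genes called higher, filled blue for genes called lower and open symbols for genes not called. Loxl3, Emilin1 and Postn lie farthest to the left and Neu1, Ltbp4 and Adamtsl3 farthest to the right.

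The genes whose levels moved most like those of a member were found by the smallest Euclidean distance over the 6 libraries, in log2(RPKM + 1) minus the WT mean, among 11196 tested protein-coding genes. For Fbn1 these were Slc35f2 (distance 0.18), Epb41l5 (0.27) and Lgr4 (0.27). Slc35f2 was low, at 0.19 to 0.28 RPKM in WT and at 4.37, 1.82 and 1.5 in cKO rep1 to rep3. Epb41l5 was at 1.3 to 1.73 RPKM in WT and at 12.21, 5.87 and 4.37 in cKO. Adding 1 shrinks such changes of low genes, so a short distance need not be a like fold. For Fbln2 they were Fas (0.24), Armcx4 (0.33) and Tpm1 (0.37), a tropomyosin that was at 1066.42 to 1152.44 RPKM in WT and at 284.35, 470.07 and 1096.99 in cKO. With Eln below the minimum for testing, no gene was sought for it.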

How the data were processed

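The authors deposited 1 table of RPKM values, per kilobase of gene and scaled to each library's mapped reads, with 1 column for each of 6 libraries. Per the submitters' processing notes, the build was GRCm38 and the tools included RSEM 1.3.1, STAR 2.7.1a and cutadapt 2.8; the annotation, filters and strand setting are not given in the sources used here. Per the labels' protocols, libraries came from a stranded polyA kit and were read as 151 bp pairs. Symbols matched 55230 of 55471 identifiers, and coordinates are from GENCODE M21 (GRCm38).

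Read counts are not used here. Depth was estimated from the steps between low RPKM values of genes with 1 transcript of 800 to 3500 bp, less 150 bp; between 81.8 and 91.3% of them came to a whole fragment number give or take 0.2 (40% by chance). Fragments of a gene are on its longest transcript and are approximate.

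The test was limma's (version 3.58.1, under R 4.3.3), 2-sided, with a variance trend and genotype as the only term, on values of log2(RPKM + 1). It covered the 12223 genes whose mean reached 1 RPKM, with Benjamini-Hochberg adjustment over all of them. Adding 1 understates changes of low genes. Folds are ratios of mean RPKM, left out where a library of the lower group was under its floor. The procedure was run on simulated data in which far fewer genes changed than were called here. That run does not give its error rate in these data. Alternatives covered pseudocount, minimum, scaling, variance prior, weights, replicate block, thresholds, centring by chromosome or GC, and leaving out each library. Members and lists were chosen with earlier results of these data known. Named are the 10 members, up to 4 called genes of smallest p per pathway list, and genes most like Fbn1 and Fbln2; other genes were named after their values were seen. Protein sequences are not used here. Tables and plots were made in Python 3.11.15 (pandas 2.3.3, numpy 2.4.6, matplotlib 3.10.9).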

Additional observations from a re-analysis of the deposited data

How the results depend on the processing

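Over 23 alternatives, the direction of the 8 tested members did not turn in any of the 183 gene and alternative pairs, and 176 kept their side of the threshold. The other 7 were new calls: Lox and Fbln2 with sample weights (log2 differences −1.24 and −1.23), Lox, Fbln2 and Loxl2 without cKO rep3 (−1.51, −1.39 and 0.46), and Fbln2 and Loxl2 at an adjusted p under 0.1. Members called higher numbered 2 to 4. Members called lower numbered 2 as reported, 4 with sample weights and 2 to 4 over the libraries left out in turn. They numbered 3 with the minimum lowered to 0.1 RPKM, with no minimum, and at an adjusted p under 0.1. The 2 higher calls with a minimum of 5 RPKM follow from Fbn2 not reaching it. For 22 named pathway genes no direction turned, and 485 of 504 pairs kept their side, the 19 lost calls being mostly those of Fbln7 and Fn1. With an absolute log2 difference of at least 1, 1632 genes were higher and 1499 lower. The difference in the Loxl1 share of lysyl oxidases was −7.86 percentage points, and −7.56 with an offset of 1 RPKM. Median-of-ratios scaling gave 3620 genes higher and 3771 lower, against 4237 and 3239, with no member's call changed. With the replicate block the members' calls were 3 higher and 2 lower, as without it, with 3811 and 2938 genes called in all; same-numbered libraries share only a number, since their deviations from the group means had r of −0.02, 0.05 and −0.02, and not every library correlated best with its own number. Depth limits Eln and Mfap5, which lay near the floor.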

Other observations

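Neighbours of the members on the chromosome were read from the same fit, as the nearest tested protein-coding gene by start on each side, a choice made after the members' values were seen. Distance was not limited, so a neighbour can lie far off. Ppp4r3a, for example, ends at 101083702 on chromosome 12, where Fbln5 starts at 101746565. Of the 10 neighbours of the 5 called members, 7 were called in the member's direction, none in the opposite direction and 3 were not called, while 34.7% of all genes were called higher and 26.5% lower.

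Both neighbours of Fbln5 rose, Ppp4r3a by 0.76 and Trip11, which starts just past it, by 0.84 on the log2 scale, against 3.56 for Fbln5 itself and a chromosome median of 0.58. Both neighbours of Fbln1 fell, Fam118a by 1.02 and Atxn10 by 0.79. Beside Fbn1, Dut rose by 0.85, and Cep152 on the other side did not pass (−0.13 ± 0.11, limma adjusted p = 0.347). Beside the undetected Eln, Limk1 was at 7.56 to 9.82 RPKM in WT and at 4.11 to 6.01 in cKO, and Mettl27 was at 2.57 to 3.38 and 3.21 to 5.07 RPKM. Apobec1, which lies next to Mfap5 on chromosome 6 and encodes an RNA-editing deaminase, was at 8.44, 7.61 and 8.23 RPKM in WT and at 0.39, 0.18 and 0.09 in cKO (log2 difference −2.90 ± 0.14, limma adjusted p = 1.59e-05). The neighbours of Loxl2, Entpd4b and R3hcc1, fell by 0.52 and 0.51, whereas the Loxl2 difference, not called, was 0.92.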
